A study of Mus musculus with 15 samples.

Results

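The collagen gene family was followed in kidneys of mice that carry a PRCC-TFE3 knock-in with or without KSP-Cre. The family was taken as every gene whose symbol has the form of a collagen alpha chain and which has an array entry annotated with exactly 1 symbol. This gave 44 genes of the 22180 genes measured, and they are all 44 collagen genes of the RefSeq mouse annotation. They were divided into 11 fibrillar chains, 8 basement membrane chains and 25 others. Col1a2, Col5a1 and Col6a1 had 2 entries each, and the entry with the higher mean over all 15 arrays was used.

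The mice held a Rosa26-LSL-PRCC-TFE3 allele, in which a fusion of the splicing-associated protein PRCC and the transcription factor TFE3 lies behind a stop cassette that Cre removes. This fusion defines a subset of translocation kidney cancers. KSP-Cre is driven by the promoter of Cdh16, a cadherin of kidney tubule epithelium, so that recombination is directed to tubule cells while RNA came from unsorted kidney tissue. The groups were 4 PRCC-TFE3;KSP-Cre- and 4 PRCC-TFE3;KSP-Cre+ mice aged 4 months, and 3 PRCC-TFE3;KSP-Cre- and 4 PRCC-TFE3;KSP-Cre+ mice aged 7 months, called Cre- and Cre+ from here on. Every group carried the knock-in, and none had KSP-Cre alone, so effects of the fusion and of the Cre transgene cannot be told apart. The labels give neither strain nor sex.

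Collagens are triple helices of 3 alpha chains. Fibrillar collagens (types I, III and V among them) assemble outside the cell into the fibrils of the interstitium, are made mainly by fibroblasts and pericytes, and accumulate when a kidney scars. Type IV collagen forms the sheet-like network of basement membranes, in which the chains Col4a1 and Col4a2 are widespread and the chains Col4a3, Col4a4 and Col4a5 form the network of the mature glomerular filter, made by podocytes, and of some tubule segments. Types XV and XVIII decorate basement membranes, fibril-associated collagens such as types XII and XIV sit on the surface of fibrils, and type VI forms beaded filaments around cells.

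The values are log2 array signals after RMA. Array medians lay between 4.40 and 4.55, and arrays correlated at 0.983 to 0.994 within a group and 0.958 to 0.994 between groups. Tfe3 differed between Cre+ and Cre- by 0.03 at 4 months (SE 0.09) and 0.22 at 7 months (SE 0.10, adjusted p = 0.139), and the sources used here do not say which part of the fusion its probes see. The 7 tubule markers, Cdh16 among them, averaged 9.42 to 9.83 in all 15 arrays. Cdh16 itself differed between Cre+ and Cre- by -0.17 at 4 months (SE 0.12, adjusted p = 0.548). At 7 months the difference of Cdh16 was -0.43 (SE 0.13, adjusted p = 0.0256). There are no detection calls. As a yardstick, Xist, which is silent in males, read 3.35 to 3.93 in the 8 arrays whose Y-linked genes were high, and 8 collagens had means at or below 3.93 in both Cre- groups: Col2a1, Col6a5, Col9a1, Col10a1, Col11a1, Col19a1, Col22a1 and Col28a1. Changes of these genes may be compressed. Values of different genes come from different probes and are not compared as levels.

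At 4 months, 4 of the 44 collagens were higher in Cre+ than in Cre- kidneys at an adjusted p under 0.05 (limma, Benjamini-Hochberg over all genes), beside 2.73% of all genes. These were the type I chains Col1a1 and Col1a2, the type III chain Col3a1 and the basement membrane collagen Col15a1. None was lower, beside 0.803% of all genes, although 2 were lower at an unadjusted p under 0.05. By class, 3 of 11 fibrillar, 1 of 8 basement membrane and 0 of 25 other collagens passed, and 4 of the others were higher at an unadjusted p under 0.05. Counts at an unadjusted p, here and below, have no share of all genes beside them and are not read as a result about collagens. The median log2 change was 0.15 over the family, against 0.05 over all genes, 0.16 over the fibrillar, 0.01 over the basement membrane and 0.15 over the other collagens.

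At 7 months, 13 collagens were higher in Cre+ kidneys, beside 11.7% of all genes, and 4 were lower, beside 10.8%, of which Col19a1 stood at the level of silent Xist in all 15 arrays. All 4 genes of the 4-month comparison were among the 13, and the arrays of the 2 ages are different mice. Fibrillar collagens gave 4 higher and 1 lower of 11, basement membrane collagens 4 higher and 2 lower of 8, and the others 5 higher and 1 lower of 25. Of the 17 genes past the test, 6 differed by at least 2-fold, and all 6 were higher: Col1a1, Col1a2, Col3a1, Col10a1, Col12a1 and Col15a1. No share of all genes stands beside this count at 2-fold, and it is not read as a result about collagens. The median over the family was 0.06 (all genes -0.04), with 0.18 for fibrillar, 0.35 for basement membrane and 0.06 for other collagens.

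**Figure D1:**
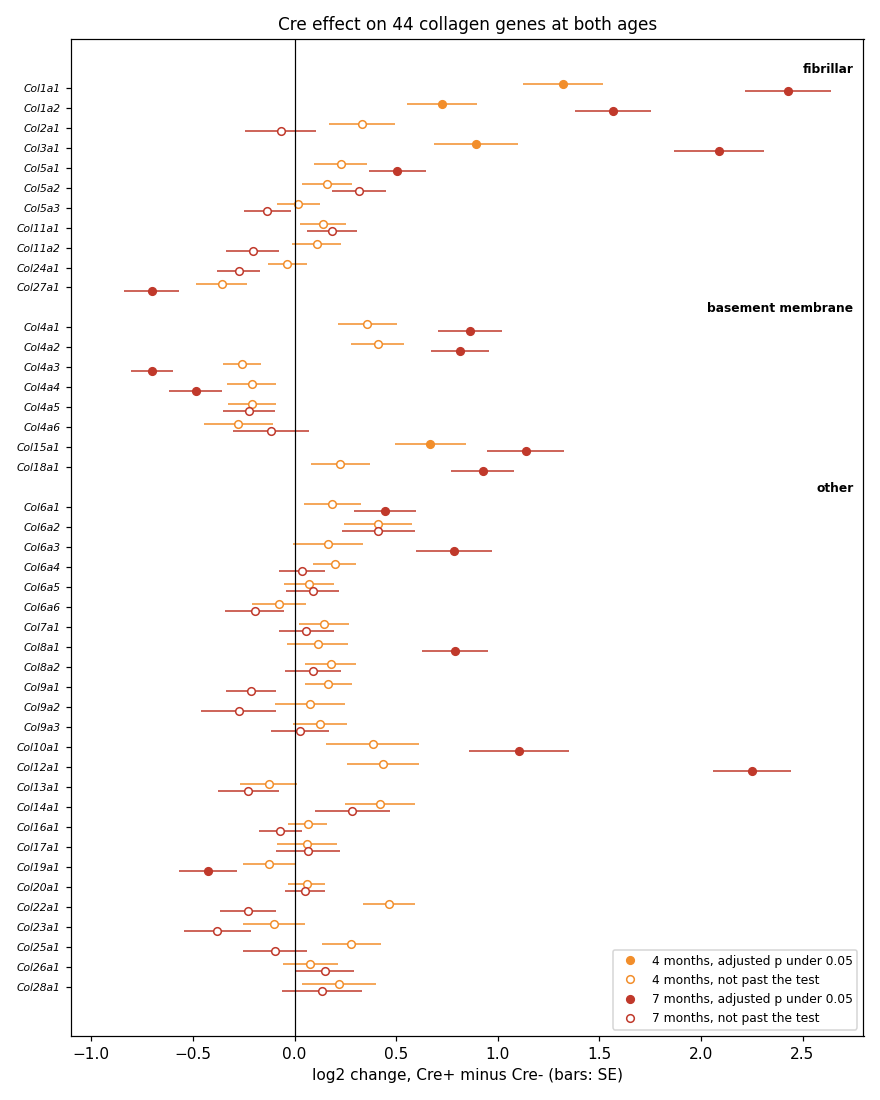
Log2 change between Cre+ and Cre- kidneys for each of the 44 collagens (rows, by class), at 4 months (orange) and 7 months (red), with bars of 1 standard error; filled points passed the test. At 7 months 13 filled points lie to the right of 0, led by Col1a1 at 2.43 and Col12a1 at 2.25, and 4 lie to the left, with Col27a1 and Col4a3 lowest at -0.70.

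The groups were also compared array by array. At 4 months 5 collagens had every Cre+ array above every Cre- array (6.31% of all genes), and 2 of them, Col1a1 and Col3a1, passed the test. The other 3 were Col4a2, Col6a2 (0.41, SE 0.17, adjusted p = 0.221) and Col22a1 (0.47, SE 0.13, adjusted p = 0.0532). At 7 months 14 collagens had no overlap upwards (14% of all genes), which were the 13 called genes and Col5a2, and 7 had none downwards (15.2%), which were the 4 called genes, Col4a5, Col11a2 and Col24a1.

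Averaged over the 11 fibrillar chains, single arrays lay between 5.15 and 5.37 in Cre- and between 5.51 and 5.75 in Cre+ mice at 4 months, and between 5.19 and 5.39 and between 5.72 and 5.85 at 7 months. At 7 months 6 of these 11 chains changed upwards and 5 downwards, by -0.70 to 2.43. Their average is therefore not read as a shift of the whole class. The 8 basement membrane chains averaged 5.92 to 6.11 and 5.99 to 6.28 at 4 months, which overlap, and 5.96 to 6.18 and 6.25 to 6.39 at 7 months, which do not. At 7 months 4 of these 8 chains changed upwards and 4 downwards. For the 25 other collagens the ranges were 4.75 to 4.87 and 4.93 to 4.98 at 4 months, and 4.69 to 4.84 and 4.85 to 5.03 at 7 months. At 7 months 16 of these 25 changed upwards and 9 downwards, and at 4 months 0 passed the test. The median change of all genes was then 0.05, or -0.03 with each array centred on its median. No average over all genes stands beside these ranges. Within the type IV chains alone, opposite changes offset each other, and their average lay between 6.10 and 6.26 in Cre- and 6.03 and 6.26 in Cre+ mice at 4 months and between 6.18 and 6.28 and between 6.14 and 6.31 at 7 months.

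**Figure D2:**
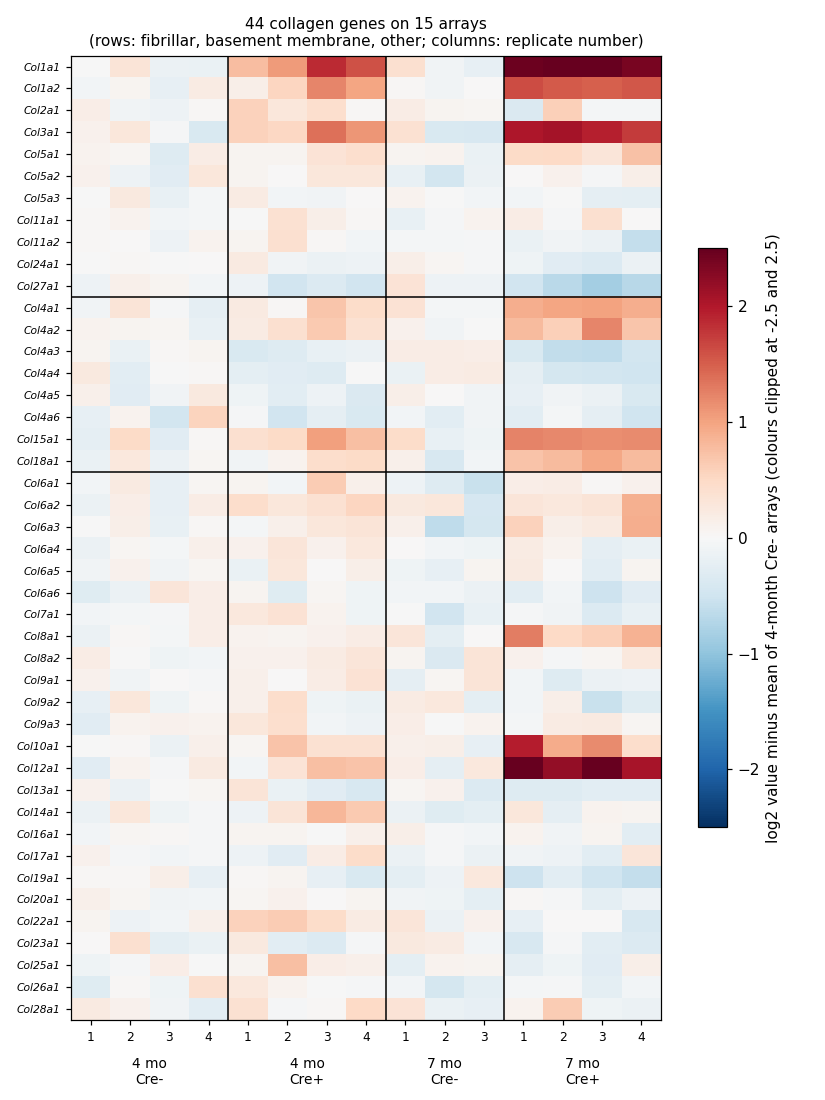
Log2 value of each collagen (rows: fibrillar, basement membrane, other) on each of the 15 arrays (columns, by replicate number within group), minus that gene's mean over the 4-month Cre- arrays; colours stop at 2.5 in both directions. Col1a1, Col3a1 and Col12a1 form the darkest rows in the 4 Cre+ arrays at 7 months, and most rows stay pale in every array.

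Among the fibrillar chains, type I collagen, the main protein of interstitial fibrils, is built from the products of Col1a1 and Col1a2. At 4 months Col1a1 read 6.29, 6.61, 6.16 and 6.13 in the Cre- kidneys and 7.07, 7.36, 8.15 and 7.89 in the Cre+ kidneys. At 7 months it read 6.70, 6.21 and 6.08 in Cre- and 8.74, 8.84, 8.79 and 8.67 in Cre+ kidneys. No Cre+ array overlapped a Cre- array at either age, the Cre+ arrays at 4 months spread over more than 1 log2 unit, and those at 7 months lay close together. The change was 1.32 at 4 months (SE 0.20, n = 4 and 4, 2.5-fold, adjusted p = 0.000609) and 2.43 at 7 months (SE 0.21, n = 3 and 4, 5.38-fold, adjusted p = 4.35e-07).

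Col1a2 read 6.95, 7.08, 6.80 and 7.22 in Cre- and 7.15, 7.55, 8.24 and 8.01 in Cre+ mice at 4 months. Its values at 7 months were 7.04, 6.92 and 7.03 in Cre- and 8.65, 8.54, 8.50 and 8.56 in Cre+ kidneys. Here the lowest Cre+ array at 4 months fell below the highest Cre- array, whereas at 7 months the groups were far apart. It was 0.73 higher at 4 months (SE 0.17, 1.65-fold, adjusted p = 0.0246) and 1.57 higher at 7 months (SE 0.19, 2.96-fold, adjusted p = 1.04e-05). The 4-month call was lost without Cre- replicate 1 (adjusted p = 0.0753) or 3 (0.0916) and without Cre+ replicate 3 (0.0845) or 4 (0.0881). Its second, dim entry was 0.25 higher at 4 months (adjusted p = 0.391) and 0.48 higher at 7 months (adjusted p = 0.0175).

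Col3a1 encodes the only chain of type III collagen, which runs with type I in soft interstitium. It read 6.52, 6.69, 6.38 and 6.03 in Cre- and 6.98, 6.91, 7.78 and 7.52 in Cre+ mice at 4 months. At 7 months the values were 6.78, 6.02 and 6.01 against 8.43, 8.49, 8.34 and 8.16. The groups did not overlap at either age, and replicate 1 of the Cre- mice at 7 months stood above the other Cre- mice. The change was 0.89 at 4 months (SE 0.20, 1.86-fold, adjusted p = 0.0202) and 2.09 at 7 months (SE 0.22, 4.25-fold, adjusted p = 3.39e-06). At 4 months it was past the threshold neither without Cre- replicate 3 (adjusted p = 0.0578) or 4 (0.0637) nor without Cre+ replicate 3 (0.0787) or 4 (0.0718).

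Col5a1, a chain of the type V collagen that nucleates fibrils and limits their width, read 5.46, 5.44, 5.06 and 5.56 in Cre- and 5.44, 5.45, 5.73 and 5.81 in Cre+ mice at 4 months. It read 5.46, 5.47 and 5.21 in Cre- and 5.86, 5.88, 5.68 and 6.11 in Cre+ mice at 7 months. The ranges overlapped at 4 months only. The change was 0.23 at 4 months (SE 0.13, adjusted p = 0.425) and 0.51 at 7 months (SE 0.14, 1.42-fold, adjusted p = 0.0148). Without Cre- replicate 3 (adjusted p = 0.0706) or Cre+ replicate 4 (0.0509) the 7-month call was lost. Its second, dimmer entry went the other way at 7 months, at -0.27 (SE 0.09, adjusted p = 0.0614), and with the mean of both entries the change was 0.12 (adjusted p = 0.49). The partner chain Col5a2 was 0.32 higher at 7 months (SE 0.13, adjusted p = 0.102).

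Of the 11 fibrillar chains 5 changed downwards at 7 months. Among them only Col27a1, a fibrillar collagen best known from cartilage, passed the test. It read 6.35, 6.61, 6.54 and 6.42 in Cre- and 6.35, 6.0, 6.13 and 5.99 in Cre+ mice at 4 months. At 7 months it read 6.82, 6.36 and 6.35 in Cre- and 6.0, 5.80, 5.63 and 5.78 in Cre+ kidneys. The groups were separate at 7 months and touched at 4 months. It was at -0.36 at 4 months (SE 0.13, adjusted p = 0.144) and 1.63-fold lower at 7 months (-0.70, SE 0.14, adjusted p = 0.000948). The 6 fibrillar chains that passed no test, which include Col2a1, Col11a1, Col11a2 and Col24a1, are described with the rest of the family.

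**Figure D3:**
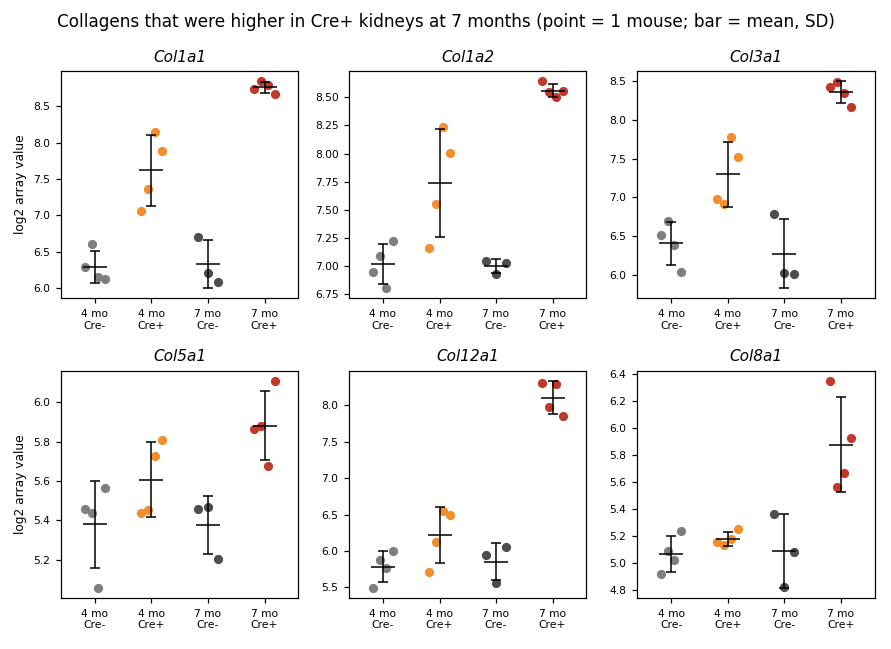
Log2 values by group for 4 fibrillar collagens (Col1a1, Col1a2, Col3a1, Col5a1) and for Col12a1 and Col8a1; each point is 1 mouse, and bars give the group mean and SD on axes that do not start at 0. In Col1a1 and Col12a1 the 4 Cre+ mice at 7 months stand together above all other mice, from 8.67 for Col1a1 and from 7.85 for Col12a1.

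Promoter sequence is shown for Col3a1 and Col1a2, the 2 chains of the type I and III fibrils for which a window was given, to set out what lies before the start of genes that moved together. Each line is the 250 bases before the RefSeq start on GRCm38.p6, read 5′ to 3′ on the gene's strand, at chr1:45311288-45311537 for Col3a1 and chr6:4505368-4505617 for Col1a2, both on the plus strand. Capitals mark a TATAAA match that begins at position -117 of Col3a1 and a CCAAT match that begins at -109 of Col1a2, with -1 as the last base before the start.
Col3a1: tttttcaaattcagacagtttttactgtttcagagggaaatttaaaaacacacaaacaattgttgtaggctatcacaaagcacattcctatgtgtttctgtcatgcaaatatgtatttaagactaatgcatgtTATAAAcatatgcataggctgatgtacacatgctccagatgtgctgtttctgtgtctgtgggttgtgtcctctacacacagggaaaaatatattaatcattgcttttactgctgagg
Col1a2: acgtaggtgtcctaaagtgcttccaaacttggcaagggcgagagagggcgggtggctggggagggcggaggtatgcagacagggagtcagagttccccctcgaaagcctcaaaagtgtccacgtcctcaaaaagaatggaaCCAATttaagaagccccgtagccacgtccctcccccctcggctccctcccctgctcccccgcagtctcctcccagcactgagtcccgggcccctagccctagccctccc
The letters TATAAA and CCAAT, as in the TATA and CCAAT boxes of promoters, were searched on both strands after the windows had been seen. The marked stretches are matches of letters, and whether either works as such a box was not tested.

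RefSeq windows from 250 bases before to 50 after a start were given for 35 of the 44 collagens, 38 windows in all. The MiT family, to which TFE3 belongs, binds E-box elements such as CACGTG and TCATGTG. The first of these lay in 0 of the 38 collagen windows, against 7.15% of all 32851 windows, and the other, on either strand, in 1 window, that of Col24a1, against 3.77%. TATAAA matched in 5 collagen windows (13.6% of all windows) and CCAAT in 13 (37.4%). These are descriptions of the letters in these windows and say nothing of binding there or elsewhere.

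Basement membrane collagens went in both directions at 7 months. Col4a1 and Col4a2, which lie head to head and encode the widespread type IV network, rose. Col4a1 read 6.38, 6.77, 6.44 and 6.24 in Cre- and 6.69, 6.49, 7.16 and 6.91 in Cre+ mice at 4 months, and 6.82, 6.40 and 6.41 in Cre- and 7.37, 7.43, 7.46 and 7.36 in Cre+ mice at 7 months. The groups overlapped at 4 months and were separate at 7 months. The change was 0.36 at 4 months (SE 0.15, adjusted p = 0.225) and 0.86 at 7 months (SE 0.16, 1.82-fold, adjusted p = 0.000605).

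Col4a2 read 5.92, 5.91, 5.88 and 5.66 in Cre- and 6.05, 6.24, 6.51 and 6.22 in Cre+ mice at 4 months. Its 7-month values were 5.96, 5.76 and 5.83 in Cre- and 6.63, 6.43, 7.06 and 6.54 in Cre+ kidneys. Groups were separate at both ages. It was 0.41 higher at 4 months (SE 0.13, adjusted p = 0.111), and the 7-month difference was 0.81 (SE 0.14, 1.76-fold, adjusted p = 0.000424).

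Col4a3 and Col4a4, the other head-to-head pair, encode chains of the glomerular network, and both fell at 7 months. Col4a3 read 7.58, 7.35, 7.54 and 7.58 in Cre- and 7.13, 7.19, 7.32 and 7.37 in Cre+ mice at 4 months, and 7.69, 7.70 and 7.68 against 7.13, 6.90, 6.87 and 7.05 at 7 months. The 4-month groups overlapped by the lowest Cre- mouse, and at 7 months every Cre+ mouse lay well below every Cre- mouse. It was at -0.26 at 4 months (SE 0.09, adjusted p = 0.169) and 1.63-fold lower at 7 months (-0.70, SE 0.10, adjusted p = 8.02e-05). With each array centred on its median the 4-month value was -0.34 and passed (adjusted p = 0.0437).

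Col4a4 read 7.5, 7.00, 7.24 and 7.28 in Cre- and 7.01, 6.98, 6.94 and 7.25 in Cre+ mice at 4 months. At 7 months it read 7.09, 7.44 and 7.47 against 7.02, 6.82, 6.79 and 6.75, so the closest mice of the 2 groups were near each other. It was at -0.21 at 4 months (SE 0.12, adjusted p = 0.428) and 1.40-fold lower at 7 months (-0.49, SE 0.13, adjusted p = 0.0123). That call was lost without Cre- replicate 2 (adjusted p = 0.0629) or 3 (0.0554).

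The third pair, Col4a5 and Col4a6, passed at neither age. Col4a5, the partner of Col4a3 and Col4a4 in the glomerulus, read 5.57, 5.15, 5.35 and 5.68 in Cre- and 5.33, 5.17, 5.31 and 5.08 in Cre+ mice at 4 months, and 5.58, 5.44 and 5.35 against 5.23, 5.34, 5.29 and 5.05 at 7 months. The 7-month groups were separate by a narrow gap. Its differences were -0.21 (SE 0.12, adjusted p = 0.406) and -0.22 (SE 0.13, adjusted p = 0.241). Col4a6, a chain of Bowman's capsule and some tubule membranes, had group means of 4.58 (SD 0.43) and 4.30 (SD 0.20) at 4 months and 4.43 (SD 0.11) and 4.32 (SD 0.19) at 7 months, with differences of -0.28 (SE 0.17, adjusted p = 0.466) and -0.12 (SE 0.19, adjusted p = 0.724). Groups of Col4a6 overlapped at both ages.

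Podocyte markers were read beside the glomerular chains. Of 8 podocyte genes 6 were measured, and at 7 months 3 were lower, beside 10.8% of all genes, Nphs1 (-0.76, SE 0.15), Podxl (-0.77, SE 0.19) and Wt1 (-0.47, SE 0.15), and Plce1 was higher (0.96, SE 0.15). Their average in single arrays was 6.33 to 6.70 in Cre- and 6.14 to 6.61 in Cre+ mice at 4 months, and 6.25 to 6.60 and 6.0 to 6.31 at 7 months. The part of podocyte content in the lower values of Col4a3 and Col4a4 was not tested. In kidney tissue, fewer cells of a type and less RNA per cell cannot be told apart.

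**Figure D4:**
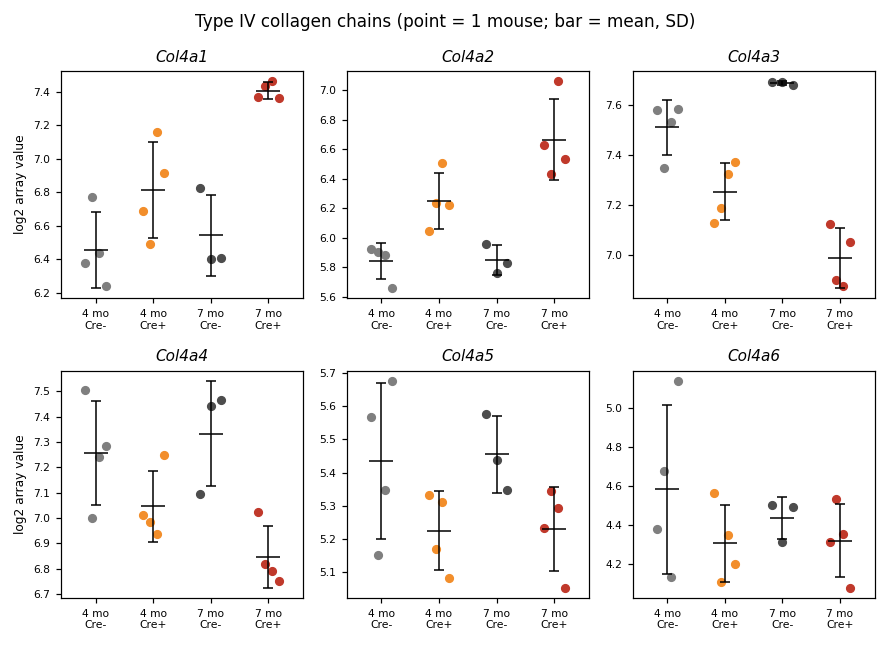
Log2 values of the 6 type IV chains by group; each point is 1 mouse, and bars give the group mean and SD on axes that do not start at 0. At 7 months the 4 Cre+ mice lie above all Cre- mice in Col4a1 and Col4a2 (from 7.36 and 6.43) and below all of them in Col4a3 and Col4a4 (up to 7.13 and 7.02).

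Types XV and XVIII, proteoglycan collagens whose C-terminal fragments restrain vessel growth, both rose at 7 months. Col15a1 read 4.89, 5.58, 4.83 and 5.15 in Cre- and 5.52, 5.60, 6.14 and 5.87 in Cre+ mice at 4 months. At 7 months it read 5.58, 4.92 and 5.01 against 6.35, 6.31, 6.27 and 6.30. The 4-month groups overlapped through 1 mouse on each side, while the 4 Cre+ mice at 7 months lay together above all Cre- mice. It was 0.67 higher at 4 months (SE 0.18, 1.59-fold, adjusted p = 0.0437) and 1.14 higher at 7 months (SE 0.19, 2.20-fold, adjusted p = 0.000265). The 4-month call lay close to the threshold and was lost in 10 of the 15 fits that left out 1 array, with a change of 0.55 to 0.83 and adjusted p = 0.152 at most. Among the Cre- mice at 4 months these were replicates 1, 3 and 4, among the Cre+ mice replicates 2, 3 and 4, and at 7 months all 4 Cre+ mice.

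Col18a1 read 5.90, 6.35, 5.94 and 6.12 in Cre- and 5.99, 6.16, 6.51 and 6.55 in Cre+ mice at 4 months. It read 6.20, 5.67 and 6.02 in Cre- and 6.78, 6.87, 7.04 and 6.86 in Cre+ mice at 7 months. The overlap of the 4-month groups was gone at 7 months. The change was 0.22 at 4 months (SE 0.15, adjusted p = 0.486) and 0.93 at 7 months (SE 0.16, 1.90-fold, adjusted p = 0.00032).

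Among the other 25 collagens, Col12a1 had the largest change. It encodes type XII collagen, which bridges fibrils and is found in dense and strained connective tissue. At 4 months it read 5.50, 5.88, 5.77 and 6.0 in Cre- and 5.71, 6.13, 6.55 and 6.50 in Cre+ kidneys, and at 7 months 5.94, 5.57 and 6.05 against 8.30, 7.98, 8.30 and 7.85. At 4 months the groups overlapped, and at 7 months the lowest Cre+ mouse was far above every Cre- mouse. The change was 0.44 at 4 months (SE 0.18, adjusted p = 0.226) and 2.25 at 7 months (SE 0.19, 4.76-fold, adjusted p = 3.59e-07). Col14a1, its close relative on fibril surfaces, passed at neither age (0.42 and 0.28, adjusted p = 0.222 and 0.314).

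Type VI collagen is the filament network around fibroblasts and muscle cells. Of its 6 measured chains 2 were higher in Cre+ kidneys at 7 months, beside 11.7% of all genes, and 0 were lower, beside 10.8%. Of the 2, Col6a1 lost its call in many fits, as given below. Col6a3 read 5.70, 5.85, 5.52 and 5.74 in Cre- and 5.65, 5.82, 5.97 and 6.02 in Cre+ mice at 4 months, and 5.83, 5.06 and 5.25 against 6.28, 5.85, 5.93 and 6.60 at 7 months. The lowest Cre+ and the highest Cre- mouse of 7 months were close, at 5.85 and 5.83. Its change was 0.17 at 4 months (SE 0.17, adjusted p = 0.7) and 0.78 at 7 months (SE 0.19, 1.72-fold, adjusted p = 0.00493).

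Col6a1 read 6.50, 6.79, 6.37 and 6.61 in Cre- and 6.63, 6.49, 7.20 and 6.69 in Cre+ mice at 4 months, and 6.44, 6.25 and 6.01 against 6.72, 6.75, 6.59 and 6.67 at 7 months. The difference at 7 months arose with lower Cre- values than at 4 months, and the Cre+ means of the 2 ages were 6.75 (SD 0.31) and 6.68 (SD 0.07). It was 0.45 higher at 7 months (SE 0.15, 1.36-fold, adjusted p = 0.0441). This call was lost in 9 of the 15 fits that left out 1 array (change 0.34 to 0.55, adjusted p = 0.184 at most): without Cre- replicate 1 or 4 or Cre+ replicate 4 at 4 months, Cre- replicate 2 or 3 at 7 months, or any Cre+ mouse at 7 months. It was also lost in 7 other alternatives, among them quantile normalization (adjusted p = 0.0844) and the mean of its 2 entries (0.18, adjusted p = 0.294). Its dimmer second entry was at -0.08 (adjusted p = 0.789). Col6a2, which lies beside it, was 0.41 higher (SE 0.18, adjusted p = 0.116).

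Of the 3 short chain collagens, 2 were higher in Cre+ kidneys at 7 months, beside 11.7% of all genes. Col8a1, a chain of the type VIII collagen of vessel walls and of Descemet's membrane in the eye, read 4.92, 5.09, 5.02 and 5.23 in Cre- and 5.15, 5.13, 5.17 and 5.25 in Cre+ mice at 4 months. At 7 months it read 5.36, 4.82 and 5.08 against 6.35, 5.56, 5.66 and 5.93. The groups were separate at 7 months and overlapped at 4 months. The change was 0.11 at 4 months (SE 0.15, adjusted p = 0.773) and 0.79 at 7 months (SE 0.16, 1.73-fold, adjusted p = 0.00167).

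Col10a1 encodes type X collagen, the collagen of hypertrophic cartilage. It read 3.45, 3.50, 3.32 and 3.59 in Cre- and 3.51, 4.19, 3.85 and 3.85 in Cre+ mice at 4 months, and 3.59, 3.61 and 3.25 against 5.42, 4.39, 4.64 and 3.89 at 7 months. Cre- mice stood at the level of silent Xist, and the 4 Cre+ mice at 7 months spread widely above them. The change was 0.39 at 4 months (SE 0.23, adjusted p = 0.44) and 1.10 at 7 months (SE 0.25, 2.15-fold, adjusted p = 0.00316), and as the Cre- level may be background the fold may be a lower bound. Of 5 cartilage markers 1 was higher at 7 months, beside 11.7% of all genes, and 0 were lower, beside 10.8%. That marker was Sox9 (0.66, SE 0.12, adjusted p = 0.000517), which kidney epithelium also expresses after injury. The count is not read as a change of the list. Acan, the main cartilage proteoglycan, averaged 3.11 in Cre- and 3.00 in Cre+ mice at 7 months.

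Col19a1, a sparse fibril-associated collagen, was the 1 other collagen that passed the test in the downward direction. It read 3.70, 3.70, 3.81 and 3.47 in Cre- and 3.69, 3.74, 3.47 and 3.28 in Cre+ mice at 4 months, and 3.42, 3.53 and 3.93 against 3.15, 3.41, 3.17 and 3.07 at 7 months. All 15 values lay at 3.93 or below, near the level of silent Xist, so no size is given and the call (adjusted p = 0.0406 at 7 months) is not read as a fall. It was lost without Cre- replicate 2 (adjusted p = 0.0618) or 3 (0.21) and without Cre+ replicate 1 (0.0825), 3 (0.0799) or 4 (0.104).

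The 25 collagens not described one by one, 6 fibrillar and 19 others, passed no Cre comparison. Their log2 differences lay between -0.13 and 0.47 at 4 months (smallest adjusted p = 0.0532) and between -0.38 and 0.41 at 7 months (smallest adjusted p = 0.0733). These smallest p-values belonged to Col22a1 and Col24a1. Among them are the cartilage chains Col2a1, Col9a1, Col9a2, Col9a3, Col11a1 and Col11a2, the anchoring fibril collagen Col7a1, and the 4 transmembrane collagens Col13a1, Col17a1, Col23a1 and Col25a1.

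The next question was whether the Cre effect differed between the ages, tested as the 7-month minus the 4-month effect. It was larger at 7 months for 2 collagens, beside 0.96% of all genes, and smaller for 0, beside 1.18%, with 9 and 3 at an unadjusted p under 0.05. For Col12a1 the effects differed by 1.82 (SE 0.26, adjusted p = 0.00345), and this held with any 1 array left out (1.65 to 1.92, adjusted p = 0.0149 at most). For Col3a1 they differed by 1.19 (SE 0.30, adjusted p = 0.049), and leaving out 1 array ended the call in 12 of 15 fits (1.06 to 1.45, adjusted p = 0.137 at most), all but those without Cre- replicate 4 or Cre+ replicate 3 at 4 months or Cre- replicate 1 at 7 months. With Col1a1 the difference was 1.11 (SE 0.29, adjusted p = 0.059) and with Col1a2 it was 0.84 (SE 0.25, adjusted p = 0.104).

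In Cre- kidneys no collagen differed between 7 and 4 months at an adjusted p under 0.05 in limma or in the plain linear model, beside 0.00451% of all genes, and 1 did at an unadjusted p under 0.05. That gene was Col6a1 (-0.33, SE 0.15, unadjusted p = 0.045). In Cre+ kidneys 8 collagens were higher at 7 than at 4 months, beside 4.12% of all genes, and 1 was lower, beside 6.71%. This comparison shares the 7-month Cre+ arrays with the 7-month Cre comparison and is not separate evidence. Col12a1 rose by 1.88 (SE 0.18, adjusted p = 1.53e-05), Col1a1 by 1.14 (SE 0.20, adjusted p = 0.00123), Col3a1 by 1.06 (SE 0.20, adjusted p = 0.00306) and Col1a2 by 0.82 (SE 0.17, adjusted p = 0.00552). Among arrays with low Y-linked values alone, the last 3 of these missed the threshold: Col1a1 was at 0.71 (adjusted p = 0.0637), beside 1.58 among arrays with high values, Col3a1 at 0.60 (adjusted p = 0.143), beside 1.52, and Col1a2 at 0.41 (adjusted p = 0.134), beside 1.24. Col12a1 passed among both kinds, at 1.55 (adjusted p = 0.00344) and 2.22 (adjusted p = 0.000446). Whether the rise differed by Y-linked status was not tested.

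Smaller rises from 4 to 7 months were those of Col10a1 (0.74, SE 0.23, adjusted p = 0.0477), Col8a1 (0.70, SE 0.15, adjusted p = 0.007), Col4a1 (0.59, SE 0.15, adjusted p = 0.0155) and Col18a1 (0.59, SE 0.15, adjusted p = 0.016). Col10a1 lost its call in 13 of 15 fits with 1 array left out (0.46 to 0.97, adjusted p = 0.119 at most), all but those without Cre+ replicate 2 at 4 months or Cre+ replicate 4 at 7 months. With the replicate number as a block it also missed the threshold (0.74, adjusted p = 0.0599), and Col4a2 passed it (0.41, adjusted p = 0.0434, against 0.0545 without the block). Col4a1 lost it without Cre+ replicate 2 at 4 months (0.48, adjusted p = 0.0506), and Col18a1 without Cre+ replicate 1 at 4 months (0.48, adjusted p = 0.0502) or Cre+ replicate 3 at 7 months (0.54, adjusted p = 0.0506). Among arrays with high Y-linked values alone, Col8a1 (0.81, adjusted p = 0.07) and Col10a1 (1.06, adjusted p = 0.0812) missed the threshold. Col4a1 (0.81) and Col18a1 (0.76) passed there. Among arrays with low values the rises were 0.58 for Col8a1, 0.41 for Col10a1, 0.37 for Col4a1 and 0.42 for Col18a1. Col22a1, a collagen of tissue junctions, was lower at 7 months (-0.61, SE 0.13, adjusted p = 0.00562), and at -0.52 among arrays with low values. Its means were 4.04 (SD 0.19) and 3.43 (SD 0.19), again near the level of silent Xist.

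Cre+ mice of 4 months differed among themselves in the same genes. Replicates 3 and 4 had the highest values of Col1a1, Col1a2, Col3a1, Col4a1, Col12a1, Col15a1 and Col18a1, and these 2 mice were the ones with low Y-linked genes. Over the 13 collagens that were higher at 7 months, the highest array of the group was one with low Y-linked genes for 12 in Cre- and 12 in Cre+ mice at 4 months, and for 10 in Cre- and 5 in Cre+ mice at 7 months. Each group held 2 arrays of each kind, except for 2 with high and 1 with low Y-linked values among the Cre- mice at 7 months. The 13 genes were chosen from these same arrays, and no such count was made over all genes. At 4 months Cre- replicate 2 was highest for 7 of them and Cre+ replicate 3 for 8. The counts are therefore not read as a tie to Y-linked status.

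With that status added to the model after the data had been seen, 1 collagen was higher in the arrays with low Y-linked values, Col18a1 (0.31, SE 0.08, adjusted p = 0.0398), and 0 were lower, beside 3.4% of all genes. A further 10 of the 44 differed at an unadjusted p under 0.05. No share of all genes stands beside this count or the unadjusted counts below, and none of them is read as a result. Within the Cre+ mice of 4 months alone, Col1a2 was 0.77 higher in the 2 mice with low Y-linked values (SE 0.15, adjusted p = 0.0424), beside 0.532% of all genes, and Col1a1 was 0.80 higher (SE 0.17, adjusted p = 0.0562). The Cre effect itself differed by Y-linked status for 0 of 44 collagens at 4 months, beside 0.0586%, and 0 of 44 at 7 months, beside 0.0541%, with 8 and 7 at an unadjusted p under 0.05. For Col3a1 these differences were 0.79 (SE 0.26, adjusted p = 0.302) and -0.98 (SE 0.29, adjusted p = 0.372).

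The Cre effect was then read within each kind of array, with 2 mice in each group except for 1 Cre- mouse with low Y-linked values at 7 months, whose variation was taken to be that of the other groups. At 4 months Col1a1 was 0.99 higher among arrays with high values (adjusted p = 0.00732) and 1.65 higher among those with low values (adjusted p = 0.00308). Col1a2 was at 0.48 (adjusted p = 0.189) and 0.97 (adjusted p = 0.01), and Col3a1 at 0.50 (adjusted p = 0.112) and 1.29 (adjusted p = 0.0191). At 7 months Col1a1 was 2.65 and 2.02 higher, Col1a2 1.62 and 1.49 and Col12a1 2.33 and 2.13, all past the test in both. Of the 17 collagens called at 7 months, 3 missed the threshold among arrays with high values, namely Col5a1 (0.53, adjusted p = 0.0583), Col19a1 (adjusted p = 0.113) and Col27a1 (-0.45, adjusted p = 0.102). Among arrays with low values, with their single Cre- mouse at 7 months, 10 missed it (adjusted p = 0.0514 to 0.633). Of these Col4a2 was at 0.84, beside 0.81 over all arrays. The changes were nearer to 0 than over all arrays for Col4a1 (0.59), Col4a4 (-0.32), Col5a1 (0.44), Col6a1 (0.19), Col6a3 (0.44), Col8a1 (0.43), Col10a1 (0.68) and Col15a1 (0.71), and the tenth was Col19a1. For Col3a1 the difference of the Cre effects between ages was 1.95 in arrays with high values (adjusted p = 0.00826) and 0.18 in those with low values (adjusted p = 0.857), and for Col12a1 it was 2.04 (adjusted p = 0.0242) and 1.54 (adjusted p = 0.0552).

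**Figure D5:**
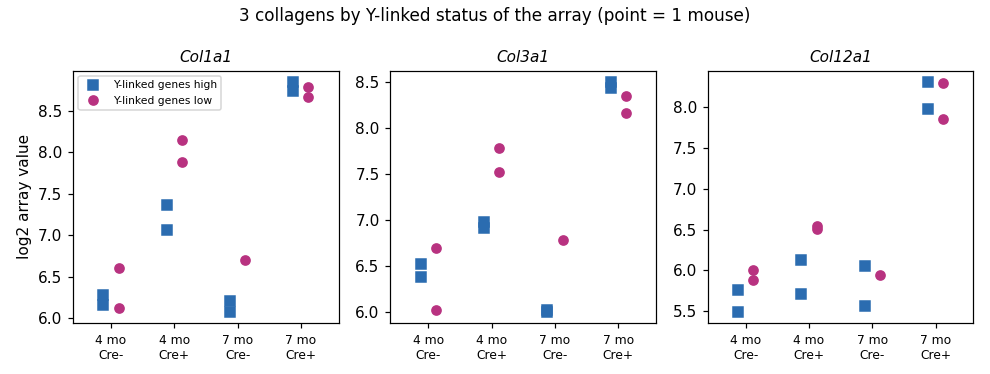
Log2 values of Col1a1, Col3a1 and Col12a1 by group, with arrays of high Y-linked values as blue squares and arrays of low values as magenta circles; each point is 1 mouse. In the Cre+ mice of 4 months both circles lie above both squares in all 3 genes (Col1a1 at 7.89 and 8.15 against 7.07 and 7.36), and in the Cre+ mice of 7 months the kinds lie close together.

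Of 34 genes listed for making and cross-linking collagen, 30 were measured. At 4 months 1 of the 30 was higher, beside 2.73% of all genes, and 0 were lower (median -0.01). It was Bmp1, the protease that trims the C-propeptide of fibrillar procollagens (0.70, SE 0.17, adjusted p = 0.0246). At 7 months 8 were higher, beside 11.7% of all genes, and 1 lower, beside 10.8% (median 0.06). The largest rises were those of Pxdn, the peroxidase that cross-links type IV collagen (1.05, SE 0.20, adjusted p = 0.00101), Lox, the lysyl oxidase of fibrils (1.03, SE 0.23, adjusted p = 0.0027), and Bmp1 (0.94, SE 0.18, adjusted p = 0.000863). Plod2, P3h1, Serpinh1, Colgalt1 and Loxl3, which hydroxylate, fold, glycosylate or cross-link collagen chains, rose by 0.41 to 0.78. P3h2, a prolyl 3-hydroxylase of type IV collagen, fell by 0.74 (SE 0.17, adjusted p = 0.00432).

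Of 12 genes for collagen receptors and uptake, 11 were measured, and 1 was higher at 4 months (median 0.24) and 8 at 7 months (median 0.52), with 0 lower at either age, beside the same shares of all genes. The largest rise was that of Cd44, a hyaluronan receptor that also binds collagen, at 0.89 at 4 months (SE 0.16, adjusted p = 0.00271) and 2.88 at 7 months (SE 0.17, adjusted p = 4.18e-09). Lair1, an inhibitory collagen receptor of leukocytes, rose by 0.91 (SE 0.18, adjusted p = 0.00132) and Adgrg1, an adhesion receptor for type III collagen, by 0.80 (SE 0.17, adjusted p = 0.00165) at 7 months. The others were Itga1 and Itgb1, which together form an integrin for collagen, the kinase receptors Ddr1 and Ddr2, and Mrc2, an endocytic receptor for collagen.

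Marker lists of other cell types were read beside the same shares of all genes, 2.73% higher and 0.803% lower at 4 months and 11.7% and 10.8% at 7 months. Their part in the collagen values was not tested. Of 12 fibroblast and myofibroblast genes, 3 were higher at 4 months (median 0.26) and 6 at 7 months (median 0.63), and 0 were lower at either age. Their average in single arrays was 5.87 to 6.29 in Cre- and 6.17 to 6.71 in Cre+ mice at 4 months, and 5.84 to 6.16 and 6.70 to 7.01 at 7 months. Those that rose at 7 months were led by Tnc, a matrix glycoprotein of remodelling tissue (2.41, SE 0.26), Postn, a collagen-binding matrix protein (1.85, SE 0.31), and Thy1, a surface marker of fibroblasts and T cells (1.12, SE 0.16). Acta2, Pdgfra, Pdgfrb, Fap, Lum and Meg3 passed at neither age.

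All 12 macrophage and monocyte genes were higher at 7 months (median 1.68), and 7 were at 4 months (median 0.80). They averaged 5.90 to 6.47 and 6.78 to 7.22 at 4 months and 5.82 to 6.33 and 7.86 to 8.19 at 7 months. The 8 proximal tubule genes were all lower at 7 months (median -1.1), and 2 were lower at 4 months, with averages of 10.99 to 11.14 and 10.74 to 10.86, and 11.05 to 11.16 and 9.81 to 10.18. Of the other lists at 7 months, 2 of 7 smooth muscle and pericyte genes and 5 of 5 measured urothelium genes were higher, and 2 of 8 endothelium genes, 2 of 7 tubule genes and 1 of 6 adipocyte genes were lower. With 10.8% of all genes lower, the counts of 1 or 2 in these short lists are not read as a change of the lists.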

How the data were processed

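RNA of flash-frozen kidneys was hybridised to Affymetrix GeneChips (Mouse Gene 2.0 ST), with a separate mouse on every array, per the labels and the series' design text. The authors' deposited log2 values come from RMA in Partek 6.6, per the submitters' processing notes; that they are log2 was taken from their range (1.04 to 13.12). RMA subtracts background, equalises the arrays and combines the probes of an entry. Arrays have no depth, and their number limits the precision.

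Of 41345 entries, 23521 had 1 gene symbol, 1814 several and 16010 none; 1 entry with several symbols names Col6a1 and was not used. The entry with the highest mean stood for a gene, with no filter on dim genes. limma 3.58.1 (lmFit, eBayes; R 4.3.3) estimated 4 group means from all 15 arrays, and 5 two-sided contrasts were adjusted by Benjamini-Hochberg over 22180 genes at a threshold of 0.05. Errors of changes are standard errors of this fit. The series' design text names ANOVA in Partek, for which limma stood in because groups were small. Replicate numbers were checked for pairing by the correlation, over genes, of same-numbered arrays' deviations from their group means. Between Cre- and Cre+ arrays it was -0.27 to 0.19 at 4 months and -0.28 to 0.22 at 7 months, and between ages in Cre- kidneys -0.47 to 0.21. These values were above 0 only where both arrays had the same Y-linked status, so the check can neither show nor exclude pairing. Such arrays were not taken as pairs. Between the ages in Cre+ kidneys all 4 values were 0.17 to 0.30, so the blocked value is given where it changes a call there; those same-numbered arrays also share their Y-linked status, and the labels name no link between them. The procedure was tested on simulated data with independent normal noise for each gene. Those data held no Y-linked difference and no link between genes, so the test does not bear on calls that depend on either.

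The members, classes and lists were chosen with earlier results of these data known, and the fits by Y-linked status were added after the data were seen. Collagens past a Cre test or the test of the difference, with Col1a1, Col1a2, Col3a1 and the 6 type IV chains, were described in full, and from other lists up to 3 rising and 3 falling genes were given values. Alternatives left out dim genes, used quantile normalization or median centring, changed the variance estimate (trend and robust, or a plain linear model), fitted the compared groups alone, weighted arrays, blocked on replicate number, added a Y-linked covariate, averaged a gene's entries, tested all entries, or dropped each array in turn.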

Additional observations from a re-analysis of the deposited data

Results flagged for a closer look

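Among the named collagens 57 groups of 4 arrays were examined for an array far from the others, and 1 stood out, while chance alone marks about 1 group in 20. Col4a2 read 5.66 in replicate 4 of the Cre- mice at 4 months, and the other 3 Cre- mice of that age read 5.88 to 5.92.

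The Cre effect was larger at 7 than at 4 months for 2 collagens by the test of that difference in limma, beside 0.96% of all genes. For Col12a1 the 7-month effect was larger by 1.82 on the log2 scale (SE 0.26, adjusted p = 0.00345), and for Col3a1 by 1.19 (SE 0.30, adjusted p = 0.049). The Col3a1 call was lost in 12 of the 15 fits that left out 1 array. The Col3a1 difference was 1.95 among arrays with high Y-linked values and 0.18 among those with low values. The latter hold 1 Cre- mouse at 7 months.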

How the results depend on the processing

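Of the collagens past the test, 13 of 17 at 7 months, 1 of 4 at 4 months (Col1a1), 1 of 2 in the difference of the effects (Col12a1) and 6 of 9 from 4 to 7 months in Cre+ kidneys passed it in every alternative that tested them, the fits by Y-linked status aside. Col10a1, Col19a1 and Col22a1 were not tested without dim genes. Among the collagens named, the tested values kept their direction in these alternatives, which read the chosen entry or the mean of entries, except that Col4a6 was at 0.080 at 4 months and 0.022 at 7 months in arrays with high Y-linked values. Read apart, the second entries of Col5a1 and Col6a1 were at -0.27 and -0.08 at 7 months. The cause of these shifts was not tested. The fits by Y-linked status hold 8 arrays with high and 7 with low values, with 1 Cre- mouse of low values at 7 months. No share of all genes stands beside the counts of those fits given below. A smaller count there is not read as a result about collagens or about Y-linked status.

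At 4 months, fibrillar chains higher (3) became 1 with the plain linear model, with all entries and in arrays with high Y-linked values, and 1 to 3 with 1 array left out. Basement membrane chains higher (1) became 0 with quantile normalization, median centring, the plain linear model, the compared groups only, all entries, arrays with low Y-linked values and type IV chains only, and 0 to 1 with 1 array left out; lower (0) became 1 with median centring. Other collagens higher (0) became 1 with array weights or the Y-linked covariate, and 0 to 2 with 1 array left out.

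At 7 months, fibrillar chains lower (1) became 2 with median centring, the plain linear model or array weights, 0 in arrays with high Y-linked values, and 1 to 2 with 1 array left out, and those higher (4) were 3 to 4. Basement membrane chains higher (4) became 2 with type IV chains only and 1 in arrays with low Y-linked values, and those lower (2) became 1 there and 1 to 2 with 1 array left out. Other collagens higher (5) became 1 in arrays with low Y-linked values and 4 to 5 with 1 array left out. Other collagens lower (1) became 0 without dim genes, with quantile normalization, the plain linear model, the compared groups only, all entries and either kind of Y-linked array, 2 with array weights, and 0 to 1 with 1 array left out.

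The difference of the effects, higher (2), became 4 with quantile normalization or the Y-linked covariate, 1 with the plain linear model or all entries, 0 in arrays with low Y-linked values, and 1 to 4 with 1 array left out; lower (0) became 0 to 1. From 4 to 7 months in Cre+ kidneys, higher (8) became 1 in arrays with low Y-linked values and 6 to 9 with 1 array left out, and lower (1) became 0 without dim genes, 2 with the plain linear model or the Y-linked covariate, and 1 to 2 with 1 array left out.

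With the replicate number as a block, basement membrane chains higher at 4 months became 0, other collagens lower at 7 months 0 and the difference of the effects 1. The collagens behind these were Col15a1 (adjusted p = 0.0776), Col19a1 (0.069) and Col3a1 (0.076), and the block also ended the calls of Col6a1 at 7 months (0.0807) and Col10a1 from 4 to 7 months in Cre+ kidneys (0.0599), and made that of Col4a2 there (0.0434). It changed no other collagen's call. Over all genes the split of higher and lower calls moved from 606 and 178 to 492 and 435 with median centring at 4 months, from 213 and 262 to 359 and 276 with quantile normalization in the difference of the effects, and from 914 and 1488 to 1325 and 1107 with quantile normalization from 4 to 7 months in Cre+ kidneys. Without detection calls, changes of dim collagens have no firm size.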
